A study of Mus musculus with 35 samples.

Results

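Cholesterol metabolism was followed through 31 genes of mouse cells, chosen by symbol for their known part in the pathway: 18 synthesis enzymes, 7 regulators, 4 genes of uptake and intracellular transport and 2 exporters. All 31 were found among the 44853 genes of the induction table, and 23 of them among the 6275 genes of the siRNA table. RNA-seq was made in 35 libraries. In the induction series, KH2 ES cells of C57BL/6 x 129/Sv genotype carried a GATA6 transgene with an HA tag that doxycycline (Dox) switches on, and gave 3 libraries untreated (0 h) and 3 at each of 16, 24, 48, 72, 96 and 168 h in 1 µg/mL Dox. Transgenic clones had been picked singly, and which clone served the time course is not given in the sources used here. Wild type XEN cells of line X10 and CD1 genotype, an extra-embryonic endoderm line, gave 2 libraries. They had neither transgene nor Dox and were grown without the LIF of the ES cells, so line, strain and medium cannot be told apart from cell type in any comparison with them. In the siRNA series the inducible ES cells, from a single clone by the study's methods, received a non-targeting siRNA (siCTL) or siRNA against Oct4, the product of Pou5f1 (siOct4), and were taken after 48 h in Dox, with 6 libraries each. ES and XEN cells were both grown with serum on fibroblast feeders, and the feeders of the inducible cells were depleted before lysis. By the study's methods the libraries of a group are independent replicates.

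Values are TPM, a gene's length-corrected share of the transcripts of a library, which keeps no record of read number, so the depth behind each value is unknown. Pearson r between libraries of a group was 0.9869 to 0.9965 in the induction series and 0.9289 to 0.9904 in the siRNA series, on log2(TPM + 1). Gata6 rose from at most 0.375 TPM at 0 h to between 129 and 138 TPM at 16 h, and the sum of 8 primitive endoderm (PrE) markers rose from 30.7 to 43.1 TPM at 0 h to 5983 to 6326 TPM at 168 h, with 5160 to 5179 TPM in XEN cells. The sum of 8 pluripotency markers fell from between 3498 and 3645 TPM to between 91.9 and 167 TPM at 168 h, and Esrrb and Tdgf1 were listed at 0 in both XEN libraries. The sum of 10 feeder markers was 37.7 to 114 TPM at 0 h, 63.4 to 96.8 TPM at 48 h, 131 to 284 TPM at 168 h and 97.5 to 102 TPM in XEN cells, and no feeder marker was at 0 in every library. Replicate 3 at 72 h lay outside replicates 1 and 2 by more than they differed for 20 of the 31 genes, a count not made over all genes. Its mean Pearson r with its group over all genes was 0.9874, against 0.9912 and 0.9917 for replicates 1 and 2. It had 150 TPM of feeder markers against 54.9 and 63.9 TPM in replicates 1 and 2. Replicate 3 at 168 h likewise had 284 TPM against 134 and 131 TPM, and replicate 3 had the highest feeder sum in 6 of the 7 groups of inducible cells, all but 96 h. The part of feeders and of unfinished conversion in the results was not tested, and in bulk RNA fewer expressing cells and less RNA per cell cannot be told apart.

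Cells make cholesterol from acetyl-CoA through mevalonate, the isoprenoid diphosphates, squalene and lanosterol. Transcription of the enzymes is driven by SREBP proteins, encoded by Srebf1 and Srebf2. These are carried by Scap from the endoplasmic reticulum for cleavage when sterol is low, and are held back by Insig1 and Insig2 when sterol is high. Cholesterol that enters with lipoproteins is freed in lysosomes by Lipa, handed to the membrane by Npc2 and Npc1, and moved between membranes by Stard4. The oxysterol receptors encoded by Nr1h2 and Nr1h3 raise the exporters Abca1 and Abcg1. Visceral endoderm, which descends from PrE, takes up and ships lipoproteins for the embryo.

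Promoter sequences were looked at because all 18 enzymes had their highest Dox mean at 48 h. RefSeq promoters (GRCm38.p6) were matched by symbol for 25 of the 31 genes, and the 250 bases before each start were searched on both strands for the CCAAT box (CCAAT), the core of a sterol regulatory element (TCACNCCAC) and a GATA motif (AGATAA). The box CCAAT stood in 14 of 15 enzymes with an entry and in 20 of the 25 genes, against 37.5% of all 27025 genes with an entry. The share was not counted over only the genes expressed in these cells, and a link to the 48 h peak was not tested. The sterol element core stood in Hmgcs1 alone of the 25, against 1.22% of all genes, and the GATA motif in Npc2 alone, against 11.4%. Only these exact letters were searched, so a gene without a match may hold another form of the element. Fdps, Fdft1, Sqle, Stard4, Npc1 and Abcg1 had no entry and were not searched. The 4 stretches below were chosen to show an enzyme with both kinds of motif, the enzyme with the most CCAAT boxes, an X-linked enzyme that differed from most others at 168 h, and the regulator with the largest rise. Capitals mark CCAAT boxes, read ATTGG on the strand shown where the box is on the other strand, and in Hmgcs1 also the sterol element core, which overlapped no box.
Hmgcs1, chr13:119690151-119690350, plus strand: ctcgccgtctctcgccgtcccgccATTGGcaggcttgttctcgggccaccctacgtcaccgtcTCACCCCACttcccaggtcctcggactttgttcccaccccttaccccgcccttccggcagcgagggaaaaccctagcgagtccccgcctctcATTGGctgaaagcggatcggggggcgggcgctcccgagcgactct
Mvk, chr5:114444089-114444268, plus strand: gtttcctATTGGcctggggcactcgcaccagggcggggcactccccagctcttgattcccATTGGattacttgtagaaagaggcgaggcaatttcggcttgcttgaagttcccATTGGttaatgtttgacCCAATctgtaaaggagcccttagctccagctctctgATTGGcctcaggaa
Ebp, chrX:8193513-8193692, minus strand: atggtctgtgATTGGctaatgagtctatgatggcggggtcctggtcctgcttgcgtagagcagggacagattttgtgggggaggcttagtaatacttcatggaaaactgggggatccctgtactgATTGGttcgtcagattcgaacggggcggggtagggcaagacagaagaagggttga
Insig1, chr5:28071182-28071362, plus strand: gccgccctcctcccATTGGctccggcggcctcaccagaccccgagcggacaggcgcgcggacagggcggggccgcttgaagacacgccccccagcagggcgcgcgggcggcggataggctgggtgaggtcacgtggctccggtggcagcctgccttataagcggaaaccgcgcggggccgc
The Hmgcs1 core begins 137 bases before the RefSeq start, and Mvk holds 5 boxes within its 180 bases. The Insig1 stretch ends where the GENCODE gene begins, 49 bases before the RefSeq start. These matches describe letters and were not tested as binding sites.

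The genes of synthesis and those of transport parted over the 168 h of Dox. At 48 h 17 of the 18 enzymes passed the adjusted p as higher, against 4164 of the 15057 genes tested. At 168 h 14 passed it as lower than at 0 h, against 5102 of all genes, and Ebp and Sc5d as higher. All 4 transport genes passed it as higher at 168 h, against 6184 of all genes. Lipa, Npc1, Abca1, Srebf1, Scap, Insig1 and Insig2 had their highest Dox mean at 168 h, as had 35.4% of all genes tested. Npc2 and Stard4 had theirs at 72 h. A gene was called changed by limma at a Benjamini-Hochberg adjusted p under 0.05 with a log2 fold change on log2(TPM + 1) beyond 1 in either direction, and all 31 genes were among the 15057 tested, Nr1h3 only through XEN cells. At 16 h no gene of the 31 was called, against calls of 1.97% of all genes tested as higher and 0.804% as lower. The adjusted p alone was passed by 1 of the 31, against 1949 of all 15057 genes. An unadjusted p under 0.05 was found for 7 of the 31, against 3720 of all. At 24 h again none was called, against 3.24% higher and 2.44% lower. The adjusted p alone was passed by 7, against 4293 of all genes, and 8 had an unadjusted p under 0.05, against 5812 of all. At 48 h 12 of the 31 were called higher and 1 lower, against 9.14% and 7.26% of all genes. At 72 h 10 were higher and 2 lower (background 14.7% and 11.5%), and at 96 h 11 were higher and 2 lower (15.4% and 14.1%). At 168 h 8 were higher and 9 lower, against 22.6% and 16.5%. All these comparisons share the 0 h libraries.

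**Figure D1:**
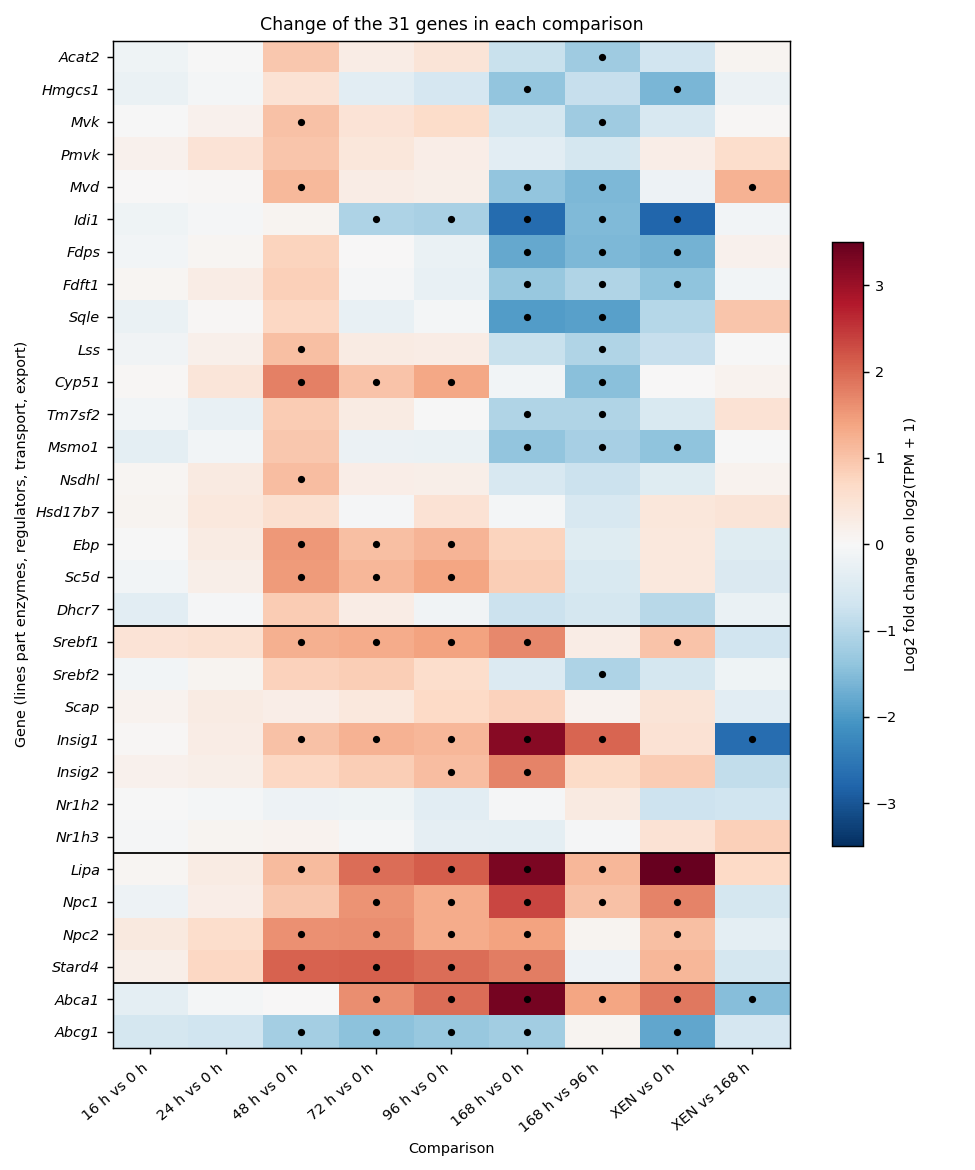
Log2 fold change on log2(TPM + 1) of the 31 genes (rows, parted by lines into enzymes, regulators, transport and export) in 9 comparisons of the induction series (columns), with red for higher and blue for lower. Black dots mark called changes, 12 higher and 1 lower at 48 h against 0 h and 8 higher and 9 lower at 168 h against 0 h.

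The synthesis enzymes peaked at 48 h. All 18 had their highest mean over the Dox groups at 48 h, as had 5.49% of all genes tested, and 16 had their lowest at 168 h, as had 26% of all. For all 18 every 48 h library was above every 0 h library, which held for 31.4% of all genes tested. For 17 the 48 h libraries were also all above the 24 h libraries (24.2% of all genes), the exception being Hsd17b7. For 16 they were all above the 72 h libraries (16.2% of all genes), the exceptions being Hsd17b7 and Ebp, both through replicate 3 at 72 h.

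At 48 h 7 enzymes were called higher and none lower. Of the 18, 17 passed the adjusted p as higher, against 4164 of the 15057 genes tested. The median log2 fold change of the 18 was 0.94, against 0.00 over all genes tested. Cyp51, the lanosterol demethylase, measured 24.4, 23.9 and 23.9 TPM at 0 h and 76.2, 79.4 and 97.9 TPM at 48 h. These groups were far apart, a 3.52-fold higher mean and a log2 fold change of 1.76 ± 0.11 (SE, n = 3 per group, limma adjusted p = 7.89e-11). Ebp, a sterol isomerase encoded on the X chromosome, measured 25.5, 22.5 and 37.2 TPM at 0 h and 70.6, 85.8 and 89.4 TPM at 48 h, a log2 fold change of 1.52 ± 0.17 (SE). Sc5d, the desaturase that follows Ebp, measured 11.8, 11.7 and 9.90 TPM at 0 h and 35.0, 33.8 and 31.1 TPM at 48 h, a 2.99-fold higher mean (adjusted p = 5.3e-09). These 3 enzymes, the most raised, act on lanosterol or after it, but other enzymes after lanosterol rose less. The 48 h means of Nsdhl, Msmo1, Tm7sf2, Dhcr7 and Hsd17b7 were 2.17-, 1.94-, 1.93-, 1.88- and 1.57-fold those at 0 h. Mvd and Mvk, which act before lanosterol, stood at 2.26-fold and 2.07-fold.

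Of the mevalonate enzymes, Mvd, the decarboxylase, measured 17.3, 17.0 and 18.5 TPM at 0 h and 37.7, 37.5 and 44.2 TPM at 48 h, a log2 fold change of 1.13 ± 0.10 (SE). Mvk, mevalonate kinase, was at 17.8 to 23.2 TPM before Dox and at 41.0 to 47.7 TPM at 48 h. Lss, which closes the sterol rings, was at 18.4 to 22.2 TPM and then at 40.7 to 46.8 TPM. Nsdhl, a sterol dehydrogenase also on the X chromosome, was at 14.2 to 15.4 TPM and then at 31.4 to 32.3 TPM. These 3 were called close to the fold change minimum, at log2 fold changes of 1.02, 1.06 and 1.07. The calls of Mvk and Lss were lost without replicate 2 at 0 h (0.91 and 0.99), that of Mvk also without replicate 2 at 48 h (0.96) or with median-of-ratios rescaling (0.99).

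A further 10 enzymes passed the adjusted p at 48 h without reaching the fold change minimum. Acat2, the thiolase that opens the pathway, was at 66.5 to 75.7 TPM before Dox and at 136 to 142 TPM at 48 h (log2 fold change 0.94). Pmvk, phosphomevalonate kinase, was at 46.1 to 61.3 TPM and then at 91.6 to 119 TPM (0.97), and was called without replicate 3 at 0 h or without replicate 1 or 2 at 48 h. Hmgcs1, which makes HMG-CoA, measured 106, 97.9 and 92.7 TPM at 0 h and 134, 138 and 153 TPM at 48 h (0.51). Group means of Hsd17b7, a ketosteroid reductase, ranged from 5.34 to 8.77 TPM over the series, and those of Dhcr7, which makes cholesterol from its last precursor, from 13.5 to 51.7 TPM, and neither was called in a comparison with 0 h. Idi1, the isopentenyl diphosphate isomerase, was the enzyme that did not pass, at 76.6, 81.5 and 75.8 TPM and then 84.7, 82.3 and 84.8 TPM, a log2 fold change of 0.11 ± 0.10 (SE, adjusted p = 0.39).

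**Figure D2:**
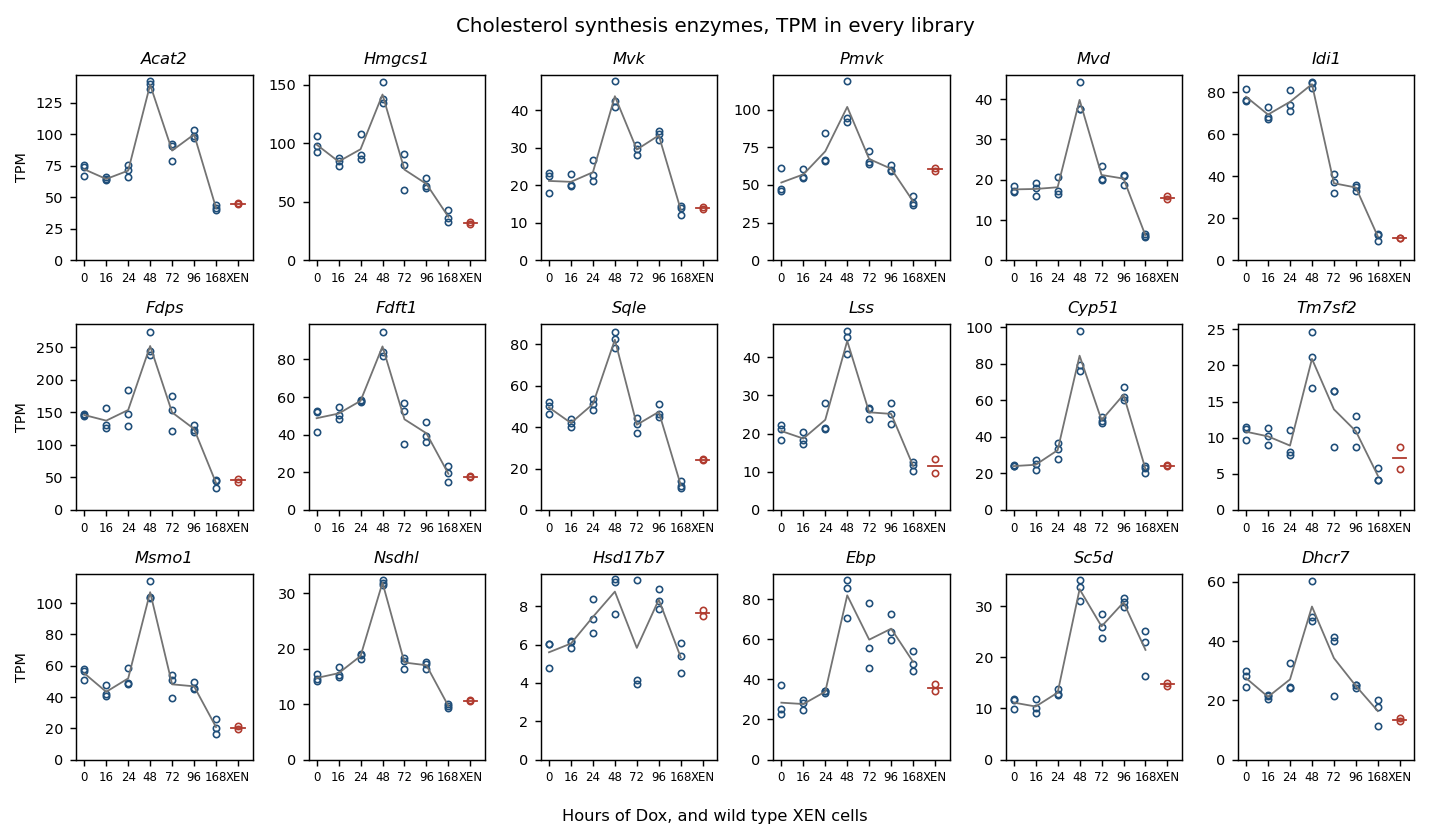
TPM (vertical axes, linear, from 0) of the 18 synthesis enzymes in each library against hours of Dox (equally spaced groups) and in XEN cells. Circles are libraries, grey lines join group means and red bars are XEN means; all 18 enzymes have their highest Dox mean at 48 h, and 16 their lowest at 168 h.

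At 72 and 96 h the enzymes differed in direction. Cyp51, Ebp and Sc5d were called higher at both times, and Idi1 was called lower. Cyp51 measured 47.9, 51.1 and 48.7 TPM at 72 h and 62.0, 60.04 and 67.3 TPM at 96 h, all above its 0 h libraries. Idi1 measured 32.0, 41.0 and 37.2 TPM at 72 h and 35.2, 32.9 and 36.0 TPM at 96 h, all below its 0 h libraries, with log2 fold changes of -1.07 ± 0.10 and -1.14 ± 0.10 (SE). The median of the 18 was 0.25 at 72 h and 0.20 at 96 h. The 72 h calls of Cyp51 (1.00) and Ebp (1.05) were lost with rescaling (0.93 and 0.97). The Cyp51 call was also lost without replicate 2 or 3 at 0 h, or without replicate 2 at 72 h (0.98). That of Ebp was lost without replicate 1 or 2 at 0 h, or without replicate 3 at 72 h (0.84), and that of Idi1 without replicate 1 at 72 h (-0.98).

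At 168 h 8 enzymes were called lower than at 0 h and none higher, and for 14 every 168 h library was below every 0 h library, as for 34.7% of all genes tested. The median log2 fold change was -0.79, against 0.09 over all genes. Idi1 fell most, to 12.8, 12.2 and 9.12 TPM, a log2 fold change of -2.69 ± 0.10 (SE, n = 3 per group, limma adjusted p = 1.09e-14). Sqle, squalene epoxidase, measured 52.0, 50.0 and 46.4 TPM at 0 h, 82.7, 85.9 and 78.0 TPM at 48 h and 11.7, 13.8 and 10.5 TPM at 168 h, where its log2 fold change against 0 h was -1.96 ± 0.09 (SE). Fdps, which makes farnesyl diphosphate, measured 146, 144 and 148 TPM at 0 h, 244, 239 and 274 TPM at 48 h and 44.5, 46.3 and 34.1 TPM at 168 h, a log2 fold change of -1.80 ± 0.14 (SE). For both the 3 groups were apart without overlap.

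The other enzymes called lower at 168 h were Hmgcs1 at 36.3, 42.9 and 32.4 TPM (log2 fold change -1.39), Mvd at 6.00, 6.65 and 5.85 TPM (-1.38), Msmo1, a methylsterol oxidase, at 16.2 to 26.1 TPM from 50.8 to 57.9 TPM (-1.39), Fdft1, squalene synthase, at 15.0 to 23.3 TPM from 41.6 to 52.8 TPM (-1.31), and Tm7sf2, a sterol reductase, at 4.17 to 5.86 TPM from 9.71 to 11.5 TPM (-1.05). The Tm7sf2 call was lost without replicate 2 (-0.99) or replicate 3 (-0.98) at 168 h. A further 6 passed the adjusted p as lower. Ebp, at 54.3, 47.8 and 44.1 TPM, and Sc5d, at 22.9, 25.1 and 16.3 TPM, instead stayed above every 0 h library, with log2 fold changes of 0.79 and 0.87 that passed the adjusted p alone; without replicate 3 at 168 h Sc5d was called higher (1.04). Cyp51 had come back to 22.9, 24.3 and 20.1 TPM, a log2 fold change of -0.10 ± 0.11 (SE, adjusted p = 0.412).

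Between 96 and 168 h most enzymes fell. All 18 had every 168 h library below every 96 h library, as had 21.2% of all genes tested. Of the 18, 11 were called lower and 17 passed the adjusted p as lower, against 2441 of the 15057 genes tested. The median of the 18 was -1.06, against 0.07 over all genes. Of the 31 genes, 12 were called lower and 4 higher in this comparison, against 2.44% and 5.23% of all genes; higher calls made up 68.1% of all calls, and 53.7% after rescaling. The largest changes were those of Sqle (-1.90 ± 0.09), Fdps (-1.57 ± 0.14), Mvd (-1.57 ± 0.10) and Idi1 (-1.54 ± 0.10, SE). The smallest was that of Ebp (-0.41 ± 0.17, adjusted p = 0.0576), which did not pass. Calls of Fdft1, Lss and Tm7sf2 lay near the minimum and were lost without single libraries of either group: Fdft1 without replicate 1 at 168 h or 3 at 96 h, Lss without replicate 3 at 168 h or 1 at 96 h, and Tm7sf2 without replicate 2 or 3 at 168 h or 3 at 96 h.

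XEN cells differed from 0 h in some enzymes. Against 0 h, 6 of the 31 genes were called higher and 6 lower (background 18.9% and 18.7%), the lower ones including 5 enzymes: Idi1, at 10.5 TPM in both libraries (-2.78 ± 0.11), Fdps (-1.66), Hmgcs1 (-1.59), Msmo1 (-1.40) and Fdft1 (-1.40). The 6 of 31 in each direction are near the background. The XEN mean was 1.17-fold that at 0 h for Pmvk, 1.37-fold for Hsd17b7, 1.27-fold for Ebp, 1.32-fold for Sc5d and 1.01-fold for Cyp51, and the median log2 fold change of the 18 was -0.62. Against 168 h of Dox the 18 enzymes had a median of 0.08, and 1 of them was called, Mvd, which measured 15.9 and 15.3 TPM in XEN cells (1.21 ± 0.11, SE, adjusted p = 4.14e-08). Sqle was at 24.1 and 24.4 TPM in XEN cells, above all 168 h libraries, with a log2 fold change of 0.96 that reached the minimum with rescaling (1.12) or without replicate 2 at 168 h (1.06). In this comparison 1 of the 31 genes was called higher and 2 lower, against 4.73% and 9.17% of all genes; 34% of all calls were higher, and 46.4% after rescaling.

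The SREBP genes took different courses. Srebf1 measured 23.8, 20.4 and 18.6 TPM at 0 h, 49.2, 52.9 and 50.4 TPM at 48 h and 65.9, 66.5 and 72.9 TPM at 168 h. It was called higher from 48 h (1.25 ± 0.09) to 168 h (1.67 ± 0.09, SE, adjusted p = 4.14e-12), and at 43.0 and 42.5 TPM in XEN cells it sat at the minimum (1.00), a call lost with rescaling or without replicate 2 or 3 at 0 h or 1 of XEN cells. Srebf2, the form that chiefly drives the cholesterol enzymes, measured 81.1, 76.5 and 77.9 TPM at 0 h, 131, 139 and 146 TPM at 48 h, 160, 168 and 111 TPM at 72 h and 53.3, 63.0 and 53.9 TPM at 168 h. It was called in no comparison with 0 h, at log2 fold changes of 0.81 ± 0.12 at 48 h and -0.47 ± 0.12 at 168 h, both past the adjusted p, and without replicate 3 at 72 h it was called higher there (1.05). From 96 to 168 h it was called lower (-1.09 ± 0.12), a call lost without replicate 3 at 96 h (-0.99). Group means of Scap, the SREBP escort, ranged from 19.4 to 35.3 TPM, the highest at 168 h (0.81 ± 0.13), short of the minimum.

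Insig1 had the largest change among the regulators. It measured 45.2, 48.9 and 41.7 TPM at 0 h and 91.0, 98.2 and 90.4 TPM at 48 h, and then 155, 162 and 47.4 TPM at 72 h, where replicate 3 was near the 0 h level. At 96 h it was at 99.0, 108 and 100.3 TPM, and at 168 h at 483, 488 and 316 TPM. The 168 h libraries were all far above the rest, a 9.47-fold higher mean than at 0 h and a log2 fold change of 3.19 ± 0.30 (SE, n = 3 per group, limma adjusted p = 1.07e-08). XEN cells measured 65.3 and 64.9 TPM, with a log2 fold change of -2.67 ± 0.33 (SE) against 168 h of Dox, so that in this gene the Dox cells at 168 h and XEN cells stood apart. Its calls at 48 h (1.03) and 72 h (1.21) were fragile. That at 48 h was lost with rescaling, with no filter on low values (adjusted p = 0.0594), and without replicate 3 at 0 h or 2 at 48 h. That at 72 h was lost without replicate 1 or 2 at 72 h, and with only the compared groups in the fit (adjusted p = 0.0542).

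Insig2 measured 21.6, 15.6 and 18.1 TPM at 0 h and 60.7, 57.8 and 72.7 TPM at 168 h, a log2 fold change of 1.74 ± 0.15 (SE). It was also called at 96 h (1.08), a call lost without replicate 2 of either group, and at 72 h when replicate 3 was left out (1.03). The oxysterol receptor genes were called in no comparison: group means of Nr1h2 ranged from 37.3 to 62.2 TPM, lowest in XEN cells, and those of Nr1h3 from 0.19 to 1.11 TPM, highest in XEN cells. With a pseudocount of 0.1 Nr1h3 was called lower at 168 h (-1.18) and higher in XEN cells against 0 h (1.03) and 168 h (2.20).

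**Figure D3:**
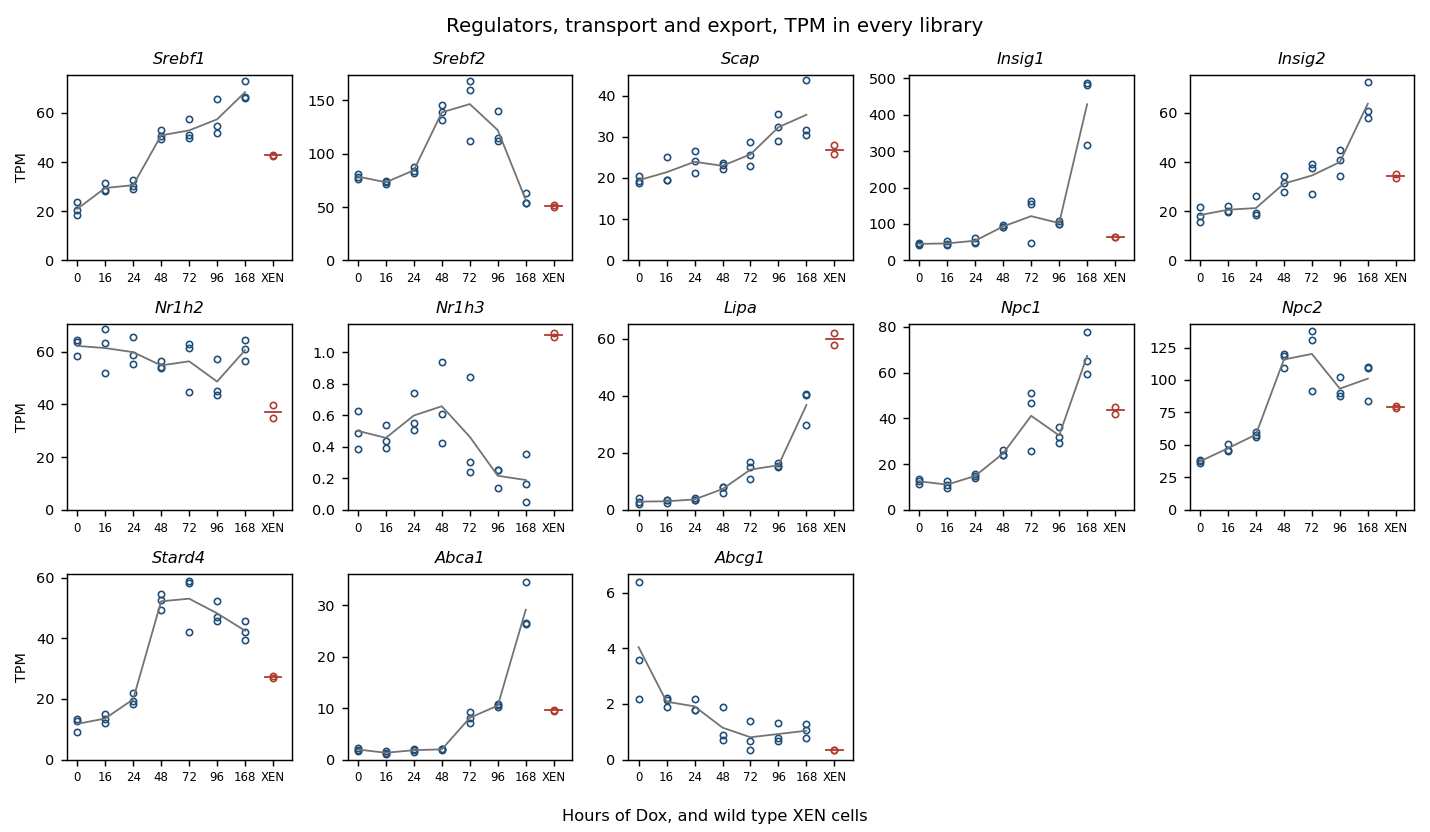
TPM (vertical axes, linear, from 0) of the 7 regulators, 4 transport genes and 2 exporters in each library against hours of Dox (equally spaced groups) and in XEN cells. Circles are libraries, grey lines join group means and red bars are XEN means; Insig1 lies at 483, 488 and 316 TPM at 168 h and at 65.3 and 64.9 TPM in XEN cells.

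Genes that free cholesterol in lysosomes and hand it on within the cell rose and stayed above their 0 h level. Of the 4, 3 were called higher at 48 h and all 4 at 72, 96 and 168 h and in XEN cells, with a median log2 fold change of 2.06 at 168 h. Lipa, the lysosomal acid lipase that frees cholesterol from its esters, measured 2.71, 4.02 and 2.01 TPM at 0 h, 7.95, 7.88 and 6.11 TPM at 48 h, 40.5, 40.2 and 29.6 TPM at 168 h and 62.0 and 57.6 TPM in XEN cells. None of these groups overlapped, and its log2 fold change was 3.29 ± 0.18 at 168 h and 3.99 ± 0.20 in XEN cells, each against 0 h (SE, limma adjusted p = 3.01e-12 and 1.17e-12); the 48 h call (1.11) was lost without replicate 3 at 0 h (0.94). Npc1, the lysosomal membrane transporter, measured 12.5, 13.6 and 11.4 TPM at 0 h, 23.9, 26.0 and 24.2 TPM at 48 h, 46.5, 51.2 and 25.6 TPM at 72 h and 65.0, 77.7 and 59.2 TPM at 168 h. Its log2 fold change was 0.93 ± 0.18 at 48 h, short of the minimum, and 2.33 ± 0.18 at 168 h (SE).

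Npc2, the soluble partner of Npc1, rose earlier. It measured 37.7, 38.4 and 35.9 TPM at 0 h, 60.3, 57.7 and 56.02 TPM at 24 h, 109, 118 and 120 TPM at 48 h, and 110, 109 and 83.6 TPM at 168 h. Its log2 fold change was 1.61 ± 0.12 at 48 h and 1.40 ± 0.12 at 168 h (SE), and between 96 and 168 h it did not pass (0.10 ± 0.12, adjusted p = 0.53). Stard4, a soluble sterol carrier, went from 13.5, 12.9 and 8.94 TPM at 0 h to 52.8, 54.6 and 49.2 TPM at 48 h and 45.8, 42.2 and 39.6 TPM at 168 h. It had the largest log2 fold change of the 31 genes at 48 h, 2.08 ± 0.14 (SE, adjusted p = 2.69e-10), and its XEN libraries, at 27.5 and 27.0 TPM, were lower than at 168 h but above 0 h (1.17, or 0.99 without replicate 3 at 0 h). Between 96 and 168 h Lipa (1.17) and Npc1 (1.02) were called higher, the latter not with rescaling (0.89) and not without replicate 2 at 168 h or 1 at 96 h.

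The exporters moved apart. Abca1, which loads cholesterol onto lipid-poor apolipoprotein, measured 2.23, 1.76 and 1.88 TPM at 0 h and 1.77, 2.14 and 2.04 TPM at 48 h, groups that overlapped. It then rose to 8.05, 9.15 and 7.16 TPM at 72 h, 10.5, 10.2 and 10.7 TPM at 96 h and 26.3, 26.5 and 34.5 TPM at 168 h, a log2 fold change of 3.34 ± 0.12 against 0 h (SE, adjusted p = 7.35e-15). XEN cells, at 9.68 and 9.43 TPM, were above 0 h (1.84) and below 168 h (-1.50 ± 0.13). Abcg1, which loads cholesterol onto mature lipoprotein particles, measured 3.57, 6.38 and 2.17 TPM at 0 h and 1.26, 0.782 and 1.06 TPM at 168 h, and was called lower from 48 h on and in XEN cells (0.344 and 0.354 TPM, -1.82 ± 0.29). Replicate 2 at 0 h was its highest library, and without it the calls at 48 h (-0.87) and 168 h (-0.91) were lost.

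The siRNA series asked whether less Oct4 changed the response at 48 h of Dox. Pou5f1 was at 782 to 1194 TPM in siCTL (median 895) and at 282 to 387 TPM in siOct4 (median 314), groups without overlap. Gata6 was at 92.6 to 198 TPM (median 110) and 51.2 to 130 TPM (median 88.1), which overlapped. Its TPM take in the transgene as well as the endogenous gene. From a stretch that the transgene lacks, the paper reports lower endogenous Gata6 with Oct4 knockdown. The table held 14 enzymes, 3 regulators, the 4 transport genes and both exporters; those 23 were the same 23 genes that were called in some comparison with 0 h, and the table lists only genes the authors held responsive to GATA6. None of the 23 was called at an adjusted p under 0.05 and a log2 fold change beyond 0.5 either way, against 0.942% of genes higher and 1.72% lower among the 6264 tested, and 0 of 23 had an unadjusted limma p under 0.05. With pair number as a replicate block, the background was 2.43% higher and 6.15% lower; again 0 were called, and 2, Insig2 and Npc2, had an unadjusted p under 0.05. The standard errors without the block were 0.13 to 0.38, so that changes near the minimum could not be resolved for most of the genes. Of all calls 35.3% were higher, and 48.5% after rescaling.

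Variation within each siRNA group was wide. Hmgcs1 measured 65.4 to 243 TPM in siCTL (median 124) and 78.0 to 201.5 TPM in siOct4, and its log2 difference within pairs ran from -0.29 to 0.61. Its siCTL libraries 1 and 2 lay close together, at 122 and 119 TPM, as did 5 and 6, at 243 and 234 TPM. The SE and SD of this series take libraries or pairs as independent, which was not tested. In siCTL, libraries 5 and 6 were the 2 highest for 13 of the 14 enzymes, a count that was not made over all genes. The sum of the 14 was 1520 and 1476 TPM in libraries 5 and 6, against 714 to 933 TPM in the other 4. The sum of the 8 pluripotency markers was also highest in these libraries, at 1546 and 1497 TPM against 937 to 1036 TPM in siCTL libraries 1 to 4, and its part in the enzyme values was not tested. In siOct4 the enzyme sum ran from 727 to 1325 TPM, within the siCTL range. The median log2 difference of the 14 enzymes was -0.02, and 0.13 after rescaling, so that no direction was held. Feeder markers, 5 of which were in the table, summed to 175 to 210 TPM in siCTL libraries 1, 2 and 4 and to 213 and 191 TPM in siOct4 libraries 5 and 6, against 26.1 to 62.3 TPM in the other 7. Without those 5 libraries 0 of the 23 genes were called and 2 had an unadjusted limma p under 0.05, and their part in the values was not tested.

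Of the 23 genes, 3 were lower with siOct4 in all 6 pairs, near the 13.6% of all 6264 genes tested for which this held, in a table whose median log2 difference was -0.124 and moved to 0.008 with rescaling. Npc2 was lower by 0.23 ± 0.13 on the log2 scale (SD over pairs), Ebp by 0.21 ± 0.25 and Tm7sf2 by 0.27 ± 0.17, none of them past the test. Insig2 measured 9.46 to 26.9 TPM in siCTL and 9.91 to 19.4 TPM in siOct4, with the largest mean difference of the 23, -0.49 ± 0.47 (SD over 6 pairs), lower in 5 of 6 pairs. Insig1 was at 36.3 to 118 TPM in siCTL and 49.7 to 114 TPM in siOct4, a mean difference of 0.30 ± 0.42 (SD). Abca1 differed in sign between pairs, from -1.95 in pair 4 to 0.82 in pair 5.

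**Figure D4:**
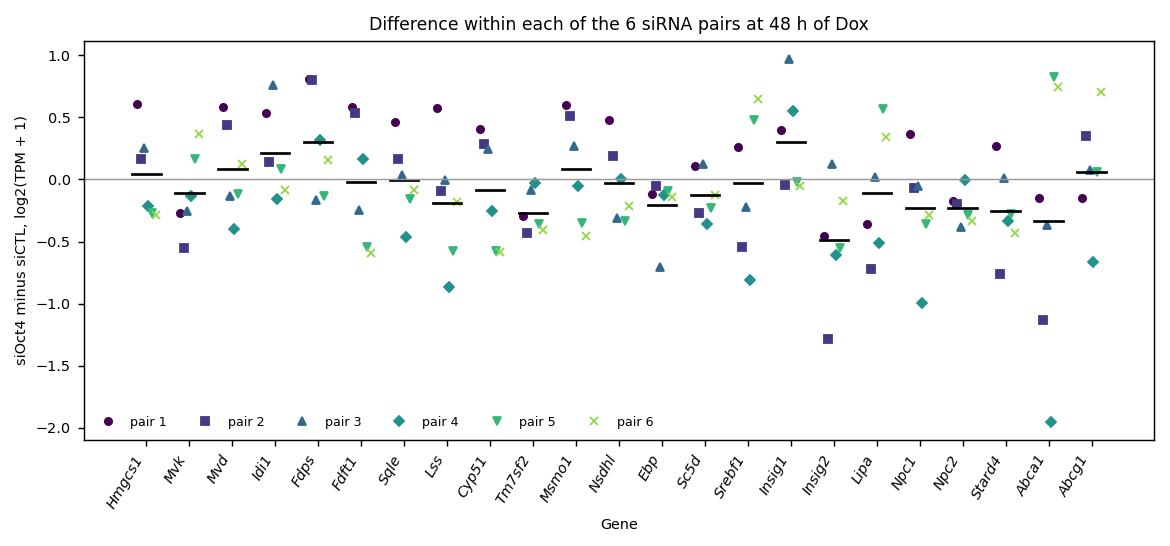
Log2(TPM + 1) in siOct4 minus siCTL within each of the 6 numbered pairs (symbols) for the 23 genes of the siRNA table, with black bars for the means. The pairs of most genes lie on both sides of 0, and those of Tm7sf2, Ebp and Npc2 are all below it.

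Genes of neighbouring pathways were taken from lists that hold no gene of the 31. Fatty acid synthesis, which SREBP1 chiefly drives, had 6 of 12 genes called higher at 48 h and none lower (background 9.14% and 7.26%), and at 168 h 2 higher and 2 lower, near or below the background of 22.6% and 16.5%. Me1, malic enzyme and a source of NADPH, went from 5.32 to 7.04 TPM at 0 h to 245 to 277 TPM at 168 h (log2 fold change 5.17 ± 0.26, SE), and Scd2, a desaturase, was also higher (1.92), whereas the fatty acid enzymes Fads2 (-1.86) and Elovl6 (-1.24) were lower. Among the 9 genes for SREBP processing and enzyme turnover 4 were called higher at 168 h, 0 lower and 5 not called, on the same background. Those called included Erlin2 (2.35), Syvn1, a ubiquitin ligase of the endoplasmic reticulum (2.32), and Pgrmc1 (1.18). In the isoprenoid branch 2 of 10 were higher at 168 h, Icmt (1.40) and Nus1 (1.19), and Pdss1, for the ubiquinone side chain, was lower (-1.42), shares at or below the same background.

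Among genes of sterol transport, storage and lipoprotein receptors, Soat1, which esterifies cholesterol for storage, went from 9.77 to 12.6 TPM to 188 to 230.2 TPM (4.16 ± 0.22, SE), and was already called at 48 h (1.87). Vldlr, a lipoprotein receptor (3.68), and the sterol carriers Osbp (2.46), Stard3 (1.69) and Gramd1c (1.24) were also called higher at 168 h. Of the 18 genes in this list 6 were called higher at 168 h, 0 lower and 12 not called. The background was 22.6% higher and 16.5% lower. Of 11 oxysterol enzymes and partners or targets of the oxysterol receptors, 9 were tested, and at 168 h 3 were higher and 1 lower, on the same background: Cyp27a1, which makes an oxysterol (2.81), Lpcat3 (2.06) and Ncoa6 (1.38) were higher and Cyp39a1 (-1.16) was lower. With siOct4 the oxysterol receptor target Arl4c was not called without the block (0.81 ± 0.36, SE, limma adjusted p = 0.326) and was called higher with the replicate block (0.81 ± 0.19, adjusted p = 0.0241). The 6 genes of this list in the siRNA series had a median log2 fold change of -0.20, and -0.07 after rescaling. Means of Lpcat3 were 67.1 TPM in siCTL and 58.2 TPM in siOct4, and those of Smpdl3a 2.02 and 1.92 TPM.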

How the data were processed

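Gene expression was measured by stranded polyA RNA-seq in 23 libraries of the induction series and 12 of the siRNA series. The authors aligned reads to mm10 with STAR and quantified genes with RSEM, per the labels and the study's methods, and both deposited tables hold TPM, made after outliers in a principal component analysis were omitted, with no statement of what these were; versions and annotation are not given in the sources used here. The siRNA table also holds the authors' group means and text classes from their own tests, which were not used. Groups came from sample titles, and columns of per-sample values with no sample numbered 0. For 60 symbols on more than 1 row, none of them among the 31, the most abundant row was used.

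Genes whose mean reached 1 TPM in any group were tested on log2(TPM + 1) with limma 3.58.1 (lmFit, eBayes with trend and robust options, two-sided) in R 4.3.3, with 1 coefficient per group and Benjamini-Hochberg adjustment over all genes of the table. A log2 fold change on this scale understates the change of low genes. No count test was run, since TPM are not counts. The procedure was tested on simulated data. The fold minimum was 1 on the log2 scale in the induction series and 0.5 in the siRNA series.

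Numbers pair the siRNA libraries: deviations from group means correlated in 6 of 6 same-numbered pairs (r 0.236 to 0.707, mean -0.064 for other numbers). Numbers are from the titles, and the study describes 6 independent siRNA experiments. In feeder sums libraries 1 and 2 lay close together in both groups, as did 5 and 6. They were at 188 and 175 TPM and at 37.0 and 44.3 TPM in siCTL. In siOct4 they were at 62.3 and 57.4 TPM and at 213 and 191 TPM. The fits and the SD over pairs take all 6 as independent. If these libraries are not, the spread is understated, which was not tested. The 31 genes and all lists were chosen with earlier results of these data known. All 31 were to be described, and from other lists the genes called at 168 h and the 2 with the largest change; some of these genes are not reported here. Gene positions came from GENCODE M21 (mm10) and promoters from RefSeq. Fdps, Tm7sf2, Srebf1, Srebf2, Nr1h3 and Abcg1 overlap another gene on their own strand, so their reads may be divided. Sorting and figures used Python 3.11.15 with numpy 2.4.6, pandas 2.3.3 and matplotlib 3.10.9. Alternatives were rescaling, filters, pseudocount, thresholds, the replicate block, only the compared groups and each replicate left out; leaving out 5 siRNA libraries with high feeder markers was chosen after seeing the data.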

Additional observations from a re-analysis of the deposited data

Results flagged for a closer look

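Of 46 sets of 6 siRNA libraries, 1 for each of 23 genes in siCTL and siOct4, 1 held a library far from the others on log2(TPM + 1), where chance gives about 1 in 20. Abca1 in siCTL library 4 was at 17.7 TPM, or 4.22 on the log2 scale, while the other 5 lay between 3.28 and 5.20 TPM, or 2.10 and 2.63. The gap was 0.748 of the range. The same library had 210 TPM of feeder markers, and siCTL libraries 1 and 2 had 188 and 175 TPM with Abca1 at 4.58 and 5.20 TPM. In siOct4, libraries 5 and 6 had 213 and 191 TPM of feeder markers with Abca1 at 7.39 and 6.56 TPM. The remaining siOct4 libraries had Abca1 at 1.83 to 4.04 TPM. Library 4 also had the highest sum of PrE markers in siCTL, 4559 TPM against 1777 to 2667 TPM in the other 5. The part of feeders and of conversion to PrE was not tested.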

How the results depend on the processing

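Numbers of the 31 genes called kept within 1.5 times of those given under median-of-ratios rescaling, both filters, an adjusted p under 0.01, the replicate block, only the compared groups and each library left out, and no called gene reversed. With each library left out there were none at 16 and 24 h, 10 to 14 calls at 48 h, 10 to 13 calls at 72 h, 12 to 13 calls at 96 h, 16 to 17 calls at 168 h, 13 to 16 for 168 against 96 h, 11 to 14 for XEN cells against 0 h, 3 to 4 for XEN cells against 168 h and 0 for siOct4. With no fold change minimum the numbers at 16, 24, 48, 72, 96 and 168 h were 1, 7, 26, 23, 21 and 28, with 25 for 168 against 96 h, 24 for XEN cells against 0 h and 15 for XEN cells against 168 h; with a pseudocount of 0.1 the last was 6, against 3. These follow from the minimum and from the weight of low values. Over all genes, a pseudocount of 0.1 gave 674 calls at 16 h (417 given), 1440 at 24 h (855), 2038 for 168 against 96 h (1155) and 3215 for XEN cells against 168 h (2092), and no fold change minimum gave 1949, 4293, 8093, 9873, 10138 and 11286 from 16 to 168 h (417, 855, 2469, 3947, 4449 and 5887), 6432 for 168 against 96 h, 10721 for XEN cells against 0 h (5654) and 7525 for XEN cells against 168 h. For siOct4, 167 calls over all genes became 297 with rescaling, 537 with the replicate block, 61 at an adjusted p under 0.01 and 28 without the 5 libraries high in feeder markers. They became 66 to 84 without replicate pair 1, 2, 4, 5 or 6, and 240 without pair 3; the cause was not tested. Rescaling moved the median log2 fold change of all genes from 0.088 to -0.046 at 168 h against 0 h, from -0.139 to -0.022 for XEN cells against 168 h and from -0.124 to 0.008 for siOct4, and the regulators' siOct4 median from -0.032 to 0.111. In the induction series the numbers were not taken to pair libraries (mean r 0.033, -0.186 to 0.219, 16 of 77 over 0.1), although replicate 3 had the highest feeder markers in 6 of 7 groups, and the replicate block there added the call of Dhcr7 in XEN cells against 0 h (-1.02) and changed no other of the 31; in the siRNA series it changed no call of the 23. TPM set no depth limit that can be stated.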
